A study of Homo sapiens with 3 samples.

Results

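Germ cell markers are genes whose products specify, maintain or equip the germline, and 10 of them were examined in untreated H9 cells: PRDM1, TFAP2C, NANOS3, DAZL, DDX4, KIT, PIWIL1, PIWIL2, SYCP3 and MAEL. The list was given by gene symbol, by a rule that uses no measured level, although earlier results of these data were known when it was drawn up. All 10 were found among the 58051 genes of the count tables, of which 19629 were protein-coding. H9 is a line of human embryonic stem cells, wild type in genotype, which was grown without feeder cells in a defined medium and received no treatment. Total RNA was depleted of ribosomal RNA, made into libraries from 750 ng of RNA with 8 PCR cycles, and sequenced in 3 replicates. The labels do not say whether the replicates were separate cultures, so the spread between them may be technical. There was 1 condition, so no difference between conditions could be tested.

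Primordial germ cells (PGCs) arise in the early embryo from cells that are still close to pluripotency, and in humans their fate is set by transcription factors such as SOX17, TFAP2C and PRDM1. After they reach the gonad they switch on a later program of RNA-binding proteins, among them DAZL and DDX4, and of PIWI proteins, which bind small RNAs called piRNAs and silence transposons. Meiotic genes such as SYCP3 follow, and many of these later genes are kept silent in other cells by DNA methylation and by repressor complexes at their promoters.

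Levels are given in TPM, a read count scaled for gene length and library size, computed from the deposited read counts and the summed exon length of each gene, so that levels of different genes can be compared. The libraries held 10390984, 12024802 and 8655155 counted reads in replicates 1, 2 and 3, and the markers took 0.0120%, 0.0133% and 0.0133% of them. The pluripotency genes POU5F1, NANOG, SOX2, LIN28A, DPPA4 and TDGF1 were all in the highest class of expression, between 275 and 2576 TPM. Markers of other lineages that such cultures can contain or that share PRDM1, TFAP2C or KIT were also examined. Of those 12 genes, 8 (66.7%) had more than 3 reads in every replicate, as did 71.9% of protein-coding genes. The summed level of the 12 was 100.2, 92.5 and 101 TPM. Most of it came from GABRP, at 58.5 ± 6.19 TPM (SD, n = 3). The other genes of amnion or trophoblast among the 12 were near or at 0. VTCN1 had 0.314 TPM and HAND1 0.306 TPM, and CDX2 and ISL1 had no read. GATA2 and GATA3, which were placed in the list of PGC transcription factors, had 1.37 ± 0.267 and 1.67 ± 0.247 TPM (SD, n = 3). Of the genes of the primitive streak, MIXL1 had 22.3 ± 5.66 TPM (SD, n = 3) and TBXT 1.75 ± 0.421 TPM. The endoderm genes FOXA2, GATA4 and GATA6 had 7.54, 0.961 and 1.47 TPM, and the neural genes PAX6 and SOX1 had 1.74 and 2.97 TPM. In bulk RNA, fewer cells that express a gene cannot be told apart from less RNA per cell, and the part of such cells in the levels below was not tested.

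The 10 markers ranged from DDX4, whose level exceeded that of 16.6% of protein-coding genes, to TFAP2C, which exceeded 83.4%. TFAP2C and KIT were expressed well above the others and took 3602 of the 4005 reads on the markers (89.9%). SYCP3, DAZL and PIWIL2 followed at a few TPM, PRDM1 lay near 1 TPM, and NANOS3, PIWIL1, MAEL and DDX4 had 17 reads among them in all 3 libraries. The median marker had 1.85 TPM (1.23, 1.91 and 1.86 TPM in replicates 1, 2 and 3), and the median protein-coding gene had 7.10 TPM. Since a count of 0 allows up to 3 counts, a gene was called detected when it had more than 3 reads in every replicate. By this rule 6 of 10 markers were detected, beside 71.9% of protein-coding genes.

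**Figure D1:**
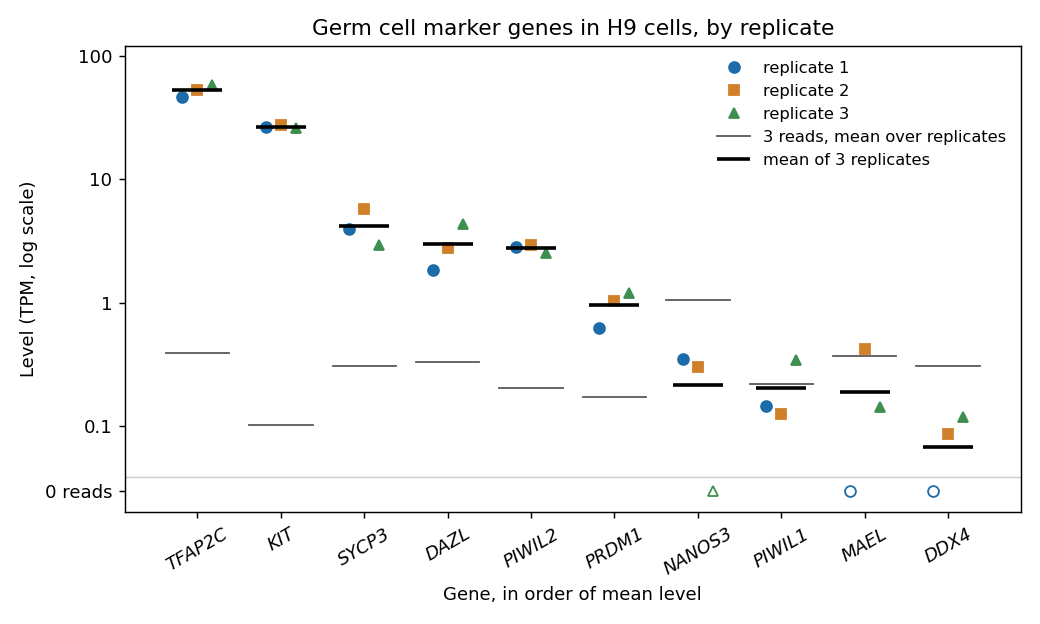
Level of each germ cell marker (TPM, log scale) in replicates 1, 2 and 3 of H9 cells, with the mean of 3 replicates as a thick bar and the level that 3 reads would give as a thin line; open symbols are replicates without a read. All replicates of the 6 genes on the left lie above the 3-read line, NANOS3 and DDX4 lie below it, and PIWIL1 and MAEL lie around it.

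Among the factors that specify PGCs, TFAP2C was the highest of all 10 markers. TFAP2C (ENSG00000087510, GRCh38 chromosome 20, 56629306 to 56639283, plus strand) encodes AP-2γ, a transcription factor needed for human PGC fate that is also active in trophoblast and in naive pluripotent cells. It had 362, 483 and 389 reads in replicates 1, 2 and 3, or 46.3, 53.2 and 58.4 TPM, with a mean of 52.6 ± 6.05 TPM (SD, n = 3). All replicates were high, and the mean was 6.59% of the level of POU5F1. PRDM1 (ENSG00000057657, chromosome 6, 105993463 to 106109939, plus strand), which encodes the repressor BLIMP1 that shuts off somatic genes in PGCs, was far lower. It had 11, 21 and 18 reads, or 0.626, 1.03 and 1.20 TPM, with a mean of 0.952 ± 0.295 TPM (SD, n = 3). Every replicate of PRDM1 was thus below every replicate of TFAP2C.

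The receptor KIT (ENSG00000157404, chromosome 4, 54657267 to 54740783, plus strand) is a tyrosine kinase on the surface of PGCs that binds stem cell factor and supports their migration and survival. KIT had the most reads of the 10 markers, with 778, 942 and 648. Per length this gave 26.4, 27.5 and 25.8 TPM and a mean of 26.5 ± 0.865 TPM (SD, n = 3), which was the smallest relative spread of the 10. The replicates of KIT lay close together, and none overlapped with those of TFAP2C or of SYCP3. KITLG, which encodes its ligand, was measured in the same cells at 15.9 ± 1.32 TPM (SD, n = 3).

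The RNA-binding proteins of the germline were represented by NANOS3, DAZL and DDX4. DAZL (ENSG00000092345, chromosome 3, 16586792 to 16670306, minus strand), which promotes translation of germ cell mRNAs, had 17, 30 and 34 reads, or 1.84, 2.79 and 4.31 TPM. Its mean was 2.98 ± 1.25 TPM (SD, n = 3), and replicate 3 was higher than the others although it was the smallest library. NANOS3 (ENSG00000187556, chromosome 19, 13862063 to 13880757, plus strand) protects PGCs from cell death and is among the earliest PGC genes. It had 1, 1 and 0 reads, or 0.349, 0.300 and 0 TPM, with a mean of 0.216 ± 0.189 TPM (SD, n = 3). NANOS3 is the shortest of the markers, with 1101 bases of exons, so 3 reads correspond to between 0.900 and 1.23 TPM. A replicate at that level would not pass the rule of more than 3 reads. The summed reads gave 0.231 TPM for NANOS3, with a 95% exact Poisson interval of 0.0280 to 0.836 TPM. DDX4 (ENSG00000152670, chromosome 5, 55738017 to 55817157, plus strand), the helicase also known as VASA that marks germ cells of the gonad, was the lowest marker. It had 0, 1 and 1 reads, or 0, 0.0863 and 0.118 TPM, with a mean of 0.0680 ± 0.0609 TPM (SD, n = 3). The summed reads gave 0.0665 TPM for DDX4, with a 95% exact Poisson interval of 0.00806 to 0.240 TPM, and 2.90 TPM for DAZL, with an interval of 2.31 to 3.61 TPM. Such intervals describe at most the error of counting and leave out other variation between replicates. Copies made by PCR are counted as if they were separate molecules, which makes the intervals too narrow.

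The piRNA pathway was represented by PIWIL1, PIWIL2 and MAEL. PIWIL2 (ENSG00000197181, chromosome 8, 22275316 to 22357568, plus strand) encodes a PIWI protein of fetal germ cells and spermatogonia. It had 42, 51 and 32 reads, or 2.81, 2.94 and 2.51 TPM, with a mean of 2.75 ± 0.218 TPM (SD, n = 3). Its paralog PIWIL1 (ENSG00000125207, chromosome 12, 130337887 to 130372637, plus strand), which acts in meiotic and later male germ cells and in oocytes, had 2, 2 and 4 reads, or 0.146, 0.125 and 0.341 TPM. Its mean was 0.204 ± 0.119 TPM (SD, n = 3), and no replicate of PIWIL1 reached any replicate of PIWIL2. MAEL (ENSG00000143194, chromosome 1, 166975582 to 167022214, plus strand), whose product acts with PIWI proteins in transposon silencing, had 0, 4 and 1 reads. This corresponds to 0, 0.420 and 0.143 TPM and a mean of 0.188 ± 0.213 TPM (SD, n = 3). The interval of the summed reads was 0.0833 to 0.380 TPM for PIWIL1 and 0.0657 to 0.472 TPM for MAEL, against 2.31 to 3.31 TPM for PIWIL2.

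SYCP3 was the only meiotic marker of the list, and after TFAP2C and KIT it had the highest mean. SYCP3 (ENSG00000139351, chromosome 12, 101728648 to 101739472, minus strand) encodes a protein of the lateral elements of the synaptonemal complex, which holds paired chromosomes together in meiosis. It had 39, 66 and 25 reads, or 3.91, 5.70 and 2.94 TPM, with a mean of 4.18 ± 1.40 TPM (SD, n = 3). Replicate 2 was highest and replicate 3 lowest. The level of SYCP3 is uncertain, because 566 bases (14.8%) of its exons are also exons of CHPT1 on the opposite strand, and the use of strand in counting is not given in the sources used here. CHPT1, which encodes an enzyme of phosphatidylcholine synthesis, spans SYCP3 and had 194, 222 and 137 reads. CHPT1 carried 92.3 reads per kb of exon over the 3 libraries, against 34.0 for SYCP3, and the part of its reads in the count of SYCP3 was not tested. The other 9 markers share no exon base with another annotated gene. Outside shared exons, the spans of PRDM1 and DDX4 each overlap a protein-coding gene on the opposite strand. These genes carried 135 and 141 reads per kb of exon, against 7.41 for PRDM1 and 0.522 for DDX4. Whether unspliced RNA of these genes, or of CHPT1, added to the marker counts was not tested.

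The order of the markers was resolved only in part by 3 replicates. Ranked by mean TPM, the order was TFAP2C, KIT, SYCP3, DAZL, PIWIL2, PRDM1, NANOS3, PIWIL1, MAEL and DDX4, and of 9 pairs of neighbors 4 had ranges that did not overlap. TFAP2C was above KIT by 0.98 ± 0.19 (SD, n = 3) in log2(TPM + 0.1) within replicates, and KIT was above SYCP3 by 2.69 ± 0.42. SYCP3 and DAZL differed by 0.51 ± 0.90 and DAZL and PIWIL2 by 0.03 ± 0.68 on the same scale, less than their spread. The range of DAZL thus overlapped with those of SYCP3 and PIWIL2, and DAZL was above SYCP3 in replicate 3. SYCP3 was above PIWIL2 in each replicate, although its lowest value, 2.942 TPM, barely exceeded the highest of PIWIL2, 2.938 TPM. PIWIL2 was above PRDM1 by 1.48 ± 0.50. PRDM1 was above NANOS3 in each replicate, by 1.96 ± 1.56, but NANOS3 had 2 reads in all. The exact Poisson interval of the summed reads was 0.0280 to 0.836 TPM for NANOS3 and 0.700 to 1.24 TPM for PRDM1. These 2 intervals overlapped between 0.700 and 0.836 TPM. Overlap of intervals is not a test of the difference, and none was made from the counts. The neighbors among NANOS3, PIWIL1, MAEL and DDX4 overlapped. An exact two-sided sign-flip test over 3 replicates cannot give a p below 0.25, so no pair was tested.

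The study divided genes into nonexpressed genes, below 0.01 TPM, and low, medium and high classes, which are 3 quantiles of the rest. Applied to the mean TPM of protein-coding genes computed here, the boundaries between classes were 3.35 and 26.96 TPM. None of the markers was nonexpressed by its mean (13.6% of protein-coding genes were), 7 were low, 2 were medium and 1 was high, beside 28.8% of protein-coding genes in each of the low, medium and high classes. TFAP2C was high and KIT and SYCP3 were medium. KIT lay just below the upper boundary. The low class spanned DAZL and PIWIL2, each with reads in every library, as well as DDX4, with 2 reads in all. At this depth a marker passed 0.01 TPM with very few reads, since 1 read of DDX4 gave 0.0863 TPM in replicate 2. The absence of nonexpressed markers therefore does not show that each was expressed. Each replicate was also classified alone, with its own boundaries, the lower at 4.23, 4.32 and 4.75 TPM and the upper at 28.6, 28.8 and 29.0 TPM in replicates 1, 2 and 3. By these, 6 of 10 markers had the same class in every replicate, compared with 87.4% of protein-coding genes. The exceptions were SYCP3, which was medium in replicate 2 and low in the others, and NANOS3, MAEL and DDX4, which were nonexpressed in the replicate where they had no read.

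**Figure D2:**
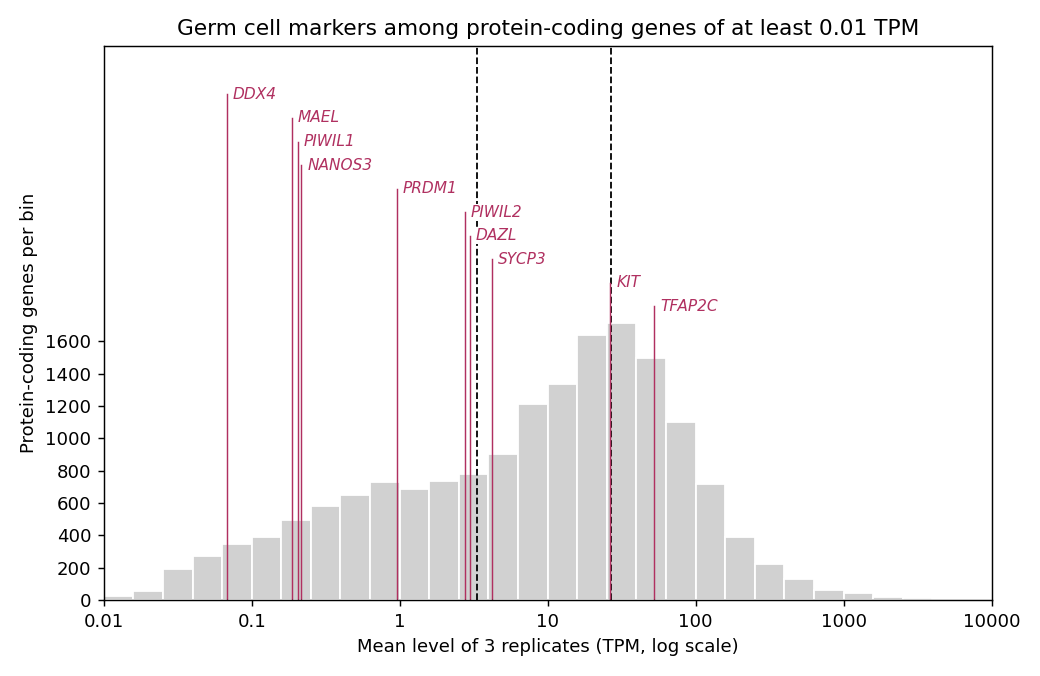
Number of protein-coding genes per bin of mean level (gray bars, TPM on a log scale, genes of at least 0.01 TPM), with the germ cell markers as labeled lines and the boundaries of the low, medium and high classes at 3.35 and 26.96 TPM as dashed lines. TFAP2C lies to the right of the upper boundary, KIT almost on it, and 7 markers to the left of the lower boundary.

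The spread between replicates was set against the spread that counting alone would give. For KIT the coefficient of variation (CV) of TPM was 3.26%, compared with 3.59% from counting, and for PIWIL2 it was 7.92% compared with 15.6%. In TPM without further rescaling, their observed spread was at or below that of counting. With levels rescaled by TMM or DESeq2 factors, the CV of KIT was 4.48% or 4.49%, above the 3.59%. That of PIWIL2 was then 9.28% or 9.38%, still below the 15.6%. TFAP2C varied 2.31 times as much as counting would give, with a CV of 11.5% against 4.97%. After the same rescaling its CV was 10.2% or 9.79%. SYCP3 had a CV of 33.4% against 15.3%, and DAZL one of 41.9% against 19.4%. PRDM1 was in between, at 31.0% against 24.7%. Among the 12678 protein-coding genes with at least 50 reads the median ratio of observed to counting CV was 1.22, and 15.0%, 17.3% and 17.8% of them had a ratio at least as large as those of TFAP2C, SYCP3 and DAZL. Among genes with about as many reads, DAZL and SYCP3 lay above the 90% quantile of this ratio and TFAP2C below it. The 3 genes did not all vary together. TFAP2C and DAZL rose from replicate 1 to replicate 3, as did PRDM1, while SYCP3, KIT and PIWIL2 were lowest in replicate 3.

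**Figure D3:**
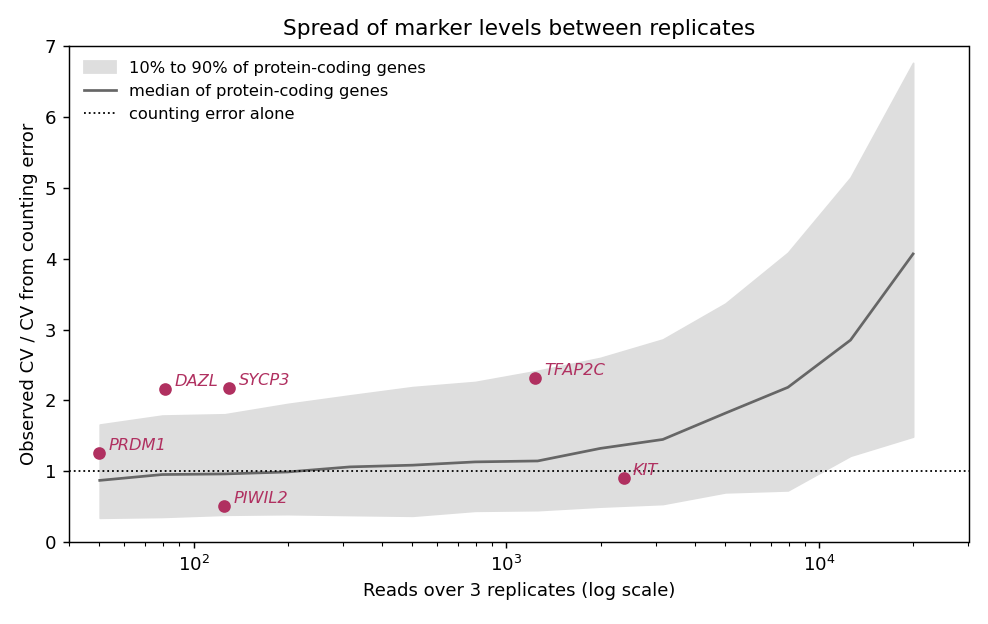
Ratio of the observed CV of TPM over 3 replicates to the CV from counting error, against the reads over 3 replicates (log scale), for the 6 markers with at least 50 reads (points) and for protein-coding genes (gray band from the 10% to the 90% quantile, line at the median). DAZL and SYCP3 lie above the band at ratios of 2.16 and 2.18, TFAP2C at 2.31 lies within it, and KIT and PIWIL2 lie below 1.

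The order of TFAP2C and KIT depended on the length taken for a gene. KIT has 24 annotated transcripts, and its exons sum to 11327 bases, whereas the canonical transcript has 5147. With the canonical transcript as length, KIT had 35.3 TPM and TFAP2C 33.3 TPM, and with the longest transcript they had 41.3 and 41.5 TPM. KIT was in the high class with either length. SYCP3 had 8.63 TPM with its canonical transcript of 1119 bases, against 4.18 TPM with all 3829 bases of its exons. TFAP2C and KIT exceeded the other markers with each of the 3 lengths.

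**Figure D4:**
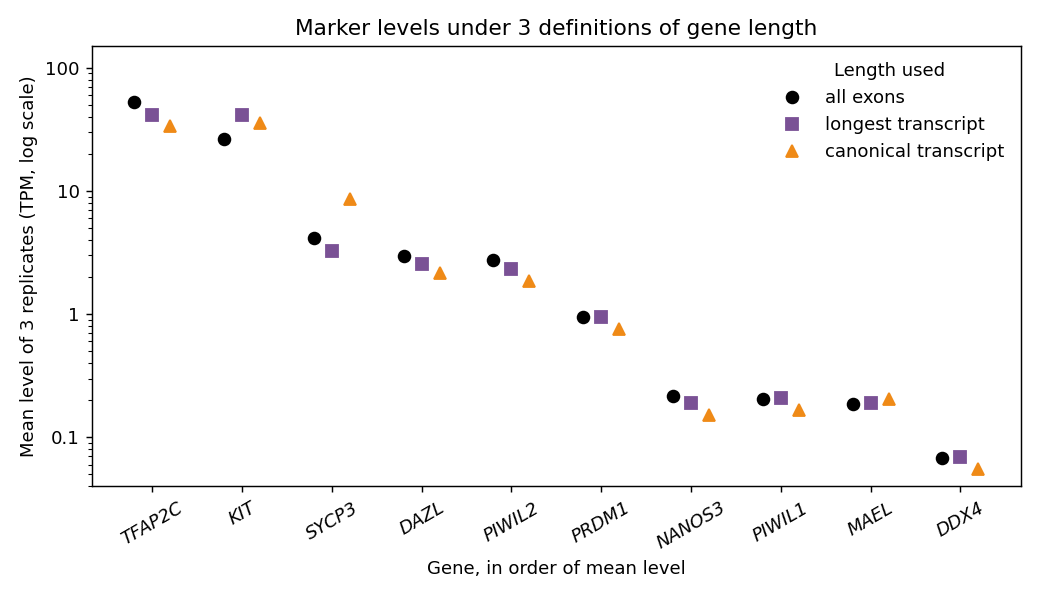
Mean level of each marker over 3 replicates (TPM, log scale) when counts are divided by the length of all exons, of the longest transcript or of the canonical transcript. TFAP2C goes from 52.6 TPM with all exons to 33.3 TPM with the canonical transcript while KIT goes from 26.5 to 35.3 TPM, and SYCP3 rises to 8.63 TPM.

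Genes that work with each marker were examined as lists, and the number detected in each list is to be read beside 71.9% of protein-coding genes. Of the other 9 transcription factors of PGC specification, all had more than 3 reads in every replicate, and 4 were low, 4 medium and 1 high, with a median of 5.15 TPM. PRDM14, which has roles in both PGCs and pluripotent cells, was highest at 329.9 ± 27.0 TPM (SD, n = 3), and SOX15 had 22.3 ± 2.93 TPM. SOX17, a key regulator of human PGC fate and of endoderm, had 14, 10 and 7 reads and 1.68 ± 0.530 TPM (SD, n = 3), next to 0.952 TPM for PRDM1. TFAP2A, the AP-2α paralog of TFAP2C, was lowest at 0.397 ± 0.137 TPM (SD, n = 3). TFAP2C was above TFAP2A in every replicate. All 10 surface molecules and signals of PGCs were detected, 5 of them in the high class, with a median of 30.6 TPM. EPCAM and ALPL, which embryonic stem cells and PGCs share, had 251 ± 19.6 and 193.8 ± 16.1 TPM (SD, n = 3), and CD38 was lowest at 0.299 TPM.

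Among 14 other RNA-binding and translational regulators of germ cells, 11 were detected (78.6%, near the 71.9% of protein-coding genes) and the median was 12.6 TPM. IGF2BP1 and MSI1, which are also active in stem and progenitor cells, were highest at 449.9 ± 20.5 and 133.6 ± 14.7 TPM (SD, n = 3). Relatives of the markers differed in level. NANOS1 was in the medium class at 4.52 ± 0.519 TPM (SD, n = 3), above NANOS3 in every replicate, while NANOS2, a regulator of male germ cells, had no read. BOLL, a member of the DAZ family that acts in meiosis, had 2, 0 and 2 reads, below DAZL in every replicate.

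The other 23 genes of the piRNA pathway were mostly in the low class (18 genes), with 1 nonexpressed, 3 medium and 1 high, and 12 (52.2%) were detected. Their median of 0.443 TPM lay between PIWIL1 and PIWIL2. The highest were PRMT5, an arginine methyltransferase with general roles in splicing, at 177 ± 11.9 TPM (SD, n = 3), and the Tudor protein gene TDRKH at 18.5 ± 1.11 TPM. The remaining PIWI genes PIWIL3 and PIWIL4 had 5, 3 and 1 and 3, 1 and 2 reads, or 0.295 ± 0.196 and 0.177 ± 0.0936 TPM (SD, n = 3). PIWIL2 was thus the PIWI gene with the most RNA in each replicate. DNMT3L, a cofactor of DNA methylation in germ cells, had 0.302 ± 0.379 TPM (SD, n = 3), and MORC1 had no read.

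Most other structural genes of meiotic chromosomes were lower than SYCP3, and several genes of meiotic cohesin, recombination and entry were higher. Of 10 other genes of the synaptonemal complex and chromosome axis, 4 were detected, 7 were low, 2 were nonexpressed and 1 was medium, with a median of 0.178 TPM. SYCE2, of the central element, had 7.50 ± 2.82 TPM (SD, n = 3) and SYCP2L had 2.59 ± 0.219 TPM. SYCP1, of the transverse filaments, had 5, 4 and 4 reads, or 0.393 ± 0.0741 TPM (SD, n = 3). SYCP2, the partner of SYCP3 in the lateral elements, had 0, 0 and 3 reads, and HORMAD2 and SYCE1 had none. Of 4 meiotic cohesin subunits, 2 were detected: REC8 at 23.9 ± 1.58 TPM and STAG3 at 5.52 ± 0.877 TPM (SD, n = 3), while RAD21L1 had 1 read in all. Of 19 genes of meiotic recombination, 11 (57.9%) were detected, with a median of 0.935 TPM. MND1 and PSMC3IP, which form a complex that assists strand exchange, were highest at 54.2 ± 0.741 and 50.1 ± 2.37 TPM (SD, n = 3), and SPO11, which makes the breaks that start recombination, and SPATA22 had no read. Of 7 regulators of meiotic entry, 2 were detected, namely the RNA helicase gene YTHDC2 at 28.4 ± 0.372 TPM and MEIOC at 6.27 ± 0.596 TPM (SD, n = 3). STRA8, which starts the meiotic program, had no read.

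Repressors that keep germline genes silent in other cells were expressed. All 19 genes of this list, which holds subunits of the PRC1.6 complex and DNA methyltransferases, were detected, and 16 were in the high class, with a median of 76.0 TPM. The de novo DNA methyltransferase gene DNMT3B reached 1199.8 ± 11.0 TPM (SD, n = 3) and CBX3 212 ± 7.98 TPM, and YAF2 was lowest at 1.52 ± 0.389 TPM. Whether any of them acts on the markers was not measured by these libraries.

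**Figure D5:**
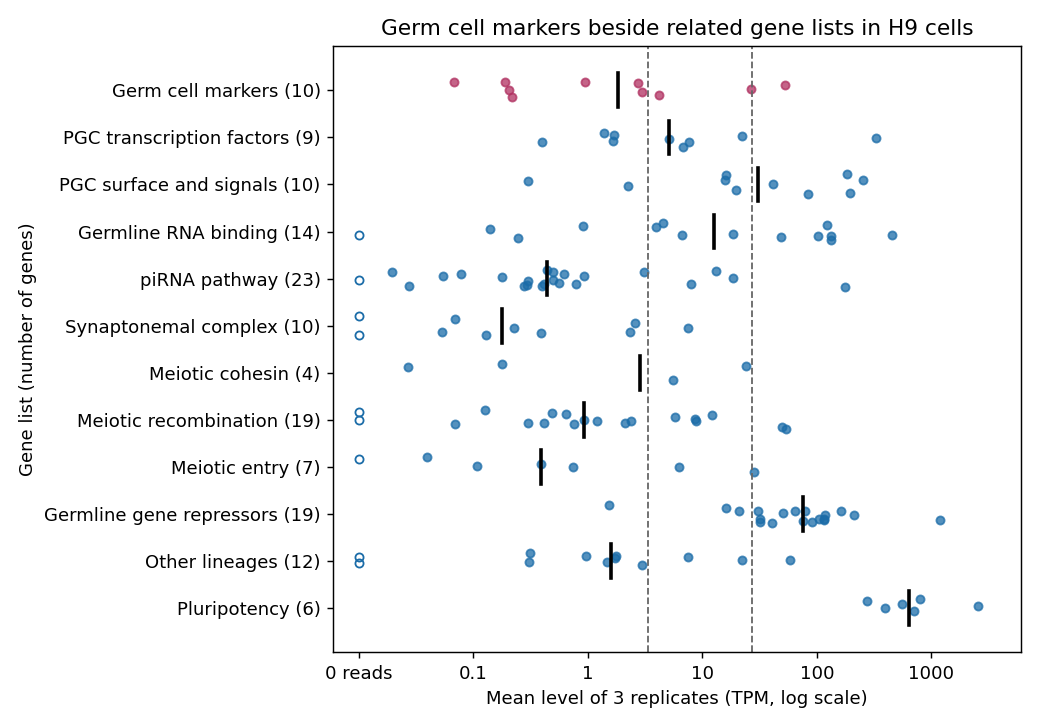
Mean level over 3 replicates (TPM, log scale) of each gene of the germ cell markers and of 11 related lists, with the median of each list as a black bar, genes without a read as open circles, and the class boundaries as dashed lines. The median of the germ cell markers, at 1.85 TPM, lies below those of PGC transcription factors at 5.15 TPM and germline repressors at 76.0 TPM and above that of other synaptonemal complex genes at 0.178 TPM.

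The promoters of the markers were compared in base composition, since CpG content bears on how a promoter can be methylated. RefSeq windows of 300 bases (GRCh38.p14, 250 bases before to 50 bases after a gene's start) were found for 8 of the 10 markers, all but TFAP2C and PIWIL2. NANOS3 had 3 windows, and DAZL, PRDM1 and MAEL had 2 each. For these genes only the window nearest the start of the canonical transcript was examined. The ratio of observed to expected CpG was 0.952 for KIT, 0.880 for SYCP3, 0.862 for DAZL, 0.650 for PRDM1, 0.749 for PIWIL1, 0.895 for MAEL, 0.132 for NANOS3 and 0.120 for DDX4, and its median over 21507 windows of protein-coding genes was 0.743. The window of DDX4 lies 28824 bases from the start of its canonical transcript in GENCODE, and the other 7 windows match that start. Among genes with very few reads the ratio was above the median in MAEL, close to it in PIWIL1 and far below it in NANOS3. The stretches of 150 bases just before the start are shown for 3 markers, to set a window with a ratio above the median (DAZL, with reads in each library) beside one close to the median (PIWIL1) and one far below it (NANOS3), both of genes near the detection limit. They read 5′ to 3′ on the strand of the gene, and capitals mark each CpG. They lie at chr3:16605424-16605573 (minus strand) for DAZL, chr12:130337737-130337886 (plus strand) for PIWIL1 and chr19:13876984-13877133 (plus strand) for NANOS3, and overlap no annotated exon.
DAZL: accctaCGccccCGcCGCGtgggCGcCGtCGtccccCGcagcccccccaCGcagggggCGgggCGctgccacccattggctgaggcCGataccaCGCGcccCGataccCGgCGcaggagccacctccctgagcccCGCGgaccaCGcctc
PIWIL1: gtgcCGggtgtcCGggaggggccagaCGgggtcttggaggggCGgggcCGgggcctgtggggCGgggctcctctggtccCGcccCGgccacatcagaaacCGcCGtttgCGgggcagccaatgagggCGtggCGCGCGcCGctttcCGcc
NANOS3: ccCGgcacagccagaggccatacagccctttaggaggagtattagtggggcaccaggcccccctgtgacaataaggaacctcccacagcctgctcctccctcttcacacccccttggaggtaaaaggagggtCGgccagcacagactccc

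The stretch of DAZL holds 20 CpGs, that of PIWIL1 17 and that of NANOS3 2. In the 300-base windows, 4 motifs were searched by their letters on both strands, without regard to overlaps between them. The E-box CACGTG was found in MAEL alone, against 8.36% of all windows, and the E2F motif TTCCCGC in none of the 8, against 8.23%. The AP-2 motif GCCNNNGGC, bound by TFAP2C among others, was found in PRDM1, NANOS3 and PIWIL1, against 27.5% of all windows. The motif CNCCTCAG, bound by STRA8 with MEIOSIN, was found in SYCP3 and, at 3 places, in DAZL, against 9.71%. A match says only that these letters are in the window.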

How the data were processed

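Total RNA of 3 replicates of H9 cells was sequenced after ribosomal RNA depletion. The authors trimmed reads with Trim Galore 0.4.4, aligned them to GRCh38 with TopHat2 2.1.1 and deposited raw counts of reads per gene, and their TPM from Cufflinks 2.2.1 was not used here. Which tool and annotation were used for counting, and whether strand was used, is not given in the sources used here. The counts were matched by Ensembl identifier to GENCODE release 44 (56948 of 58051 genes), divided by exon length (all exons of a gene merged) and scaled to TPM over matched genes. Low depth limits genes of a few reads most, and a count of 0 allows up to 3 counts.

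The classes of the study's methods were applied to the mean TPM of protein-coding genes. The 10 markers, the 11 other lists with 133 genes and the motifs were chosen with earlier results of these data known. Every marker was named, and from each other list the 2 highest genes, the lowest and relatives or partners of markers, and CHPT1 for its overlap. GATA2 and GATA3 were also named, after their values were seen. The 12 genes of other lineages and 6 of pluripotency were all named, a choice made after their values were seen. No test between groups was possible. The steps were tested on simulated counts. Factors of edgeR 4.0.16 (TMM) and DESeq2 1.42.0, with R 4.3.3, served as alternatives beside other gene lengths, CPM, thresholds, pseudocounts, filters and leaving out replicates. Python 3.11.15, pandas 2.3.3 and scipy 1.17.1 were used.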

Additional observations from a re-analysis of the deposited data

How the results depend on the processing

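Rescaling by TMM or DESeq2 factors and leaving out mitochondrial genes kept the class of each of the 10 markers, and 6 markers remained above 3 reads in every replicate when any replicate was left out, with a floor of 10 counts and among genes kept by filterByExpr. Classes near a boundary depended on other settings. With the longest transcript as gene length, or with CPM, 0 markers were medium and 2 high. With the canonical transcript 1 was medium and 2 high, and the median marker had 1.31 TPM. With the median of the replicates 1 was medium, since SYCP3 was then low. A threshold of 0.1 TPM gave 1 nonexpressed and 1 medium marker, and one of 1 TPM gave 5 nonexpressed, 3 low and 1 medium. Classifying all genes gave 4 low, 4 medium and 2 high. Leaving out each replicate gave from 1 to 2 medium markers, with SYCP3 low without replicate 2, and a median between 1.57 and 1.92 TPM. From 4 to 7 pairs of neighbors were then without overlap, with 7 when replicate 3 was left out. Ranges over fewer replicates cannot be wider, and the order was ranked anew each time. These counts therefore do not compare directly with that over all replicates. No paired analysis was possible because there is 1 condition.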
